A study of Mus musculus with 4 samples.

Results

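Cells of the NSC line CN4 in which a *Hoxa9* transcript was captured were compared with CN4 cells in which *Hoxa5* but not *Hoxa9* was captured, gene by gene and at like read depth. Of 18157 CN4 cells, 1702 had at least 1 *Hoxa9* read (9.37%, exact 95% interval 8.95% to 9.81%) and are called *Hoxa9* cells. A further 9482 cells (52.2%) had a *Hoxa5* read without a *Hoxa9* read and are called *Hoxa5*-only cells. The remaining 6973 cells (38.4%) had neither read. The cells were thus chosen by their reads of these 2 genes, and the values of both genes are given only as a description.

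The study derived mouse neural stem cell (NSC) lines from 129/Sv epiblast stem cells (EpiSCs), cultured cells resembling the epiblast just before the body axis is laid down, under different inputs of Wnt signaling. All 4 lines grew with EGF and FGF2, each at 10 ng/ml. CN4 additionally received 2 µM CHIR99021, which activates Wnt signaling, XN4 and XN1 received 10 µM XAV939, which inhibits it, and KN1 received neither. The XAV939 of XN1 came from another supplier than that of XN4 and formed crystals. The study holds that this lowered its effective concentration. Each line was 1 BD Rhapsody library of polyA RNA, in which cells are lysed in microwells beside barcoded beads, and the tables used here held 45325 cells, of which the 3975 of KN1 are a random part of that line. CN4 is a single culture of a single line, so cells are not replicates, no test was made, and the intervals cover counting error only.

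Hox genes encode homeodomain transcription factors (TFs) that lie in the HoxA, HoxB, HoxC and HoxD clusters and are numbered by paralog group. Along the neural tube, low-numbered genes start in the hindbrain, middle-numbered genes in the cervical and upper thoracic spinal cord, and high-numbered genes farther back, in the same order as their places in the cluster. *Hoxa5* belongs to the cervical range and *Hoxa9* to the thoracic range. Wnt signaling and the Cdx TFs are known activators of the posterior part of the clusters.

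*Hoxa10*, *Hoxc9* and *Hoxc8* stood out among the other Hox genes. *Hoxa10*, the neighbor of *Hoxa9* on the posterior side, was captured in 22.4% of *Hoxa9* cells (382 cells, 20.5% to 24.5%), against 3.10% of *Hoxa5*-only cells weighted to the same depth. *Hoxc9* was captured in 23.9% (407 cells, 21.9% to 26.0%) against 11.8%, and *Hoxc8* in 78.3% (1332 cells, 76.2% to 80.2%) against 50.3%. *Hoxa7*, which lies on the anterior side of *Hoxa9*, was captured in 75.4% against 71.9%, and *Hoxa4* in 7.11% against 8.23%. *Hoxc4*, the most anterior *Hoxc* gene, was captured in 16.1% against 19%, which did not reach the fold used below.

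Because *Hoxa9* and *Hoxa10* were captured together and *Hoxa7* was captured about equally, the sequences around the starts of these genes are shown here. Each window runs from 250 bases before to 50 bases after an annotated start and is written 5′ to 3′ from the RefSeq table of GRCm38.p6, with the matches to 5 motifs in capitals. *Hoxa10* has 2 windows in that table.
Hoxa7, chr6:52218524-52218823, minus strand: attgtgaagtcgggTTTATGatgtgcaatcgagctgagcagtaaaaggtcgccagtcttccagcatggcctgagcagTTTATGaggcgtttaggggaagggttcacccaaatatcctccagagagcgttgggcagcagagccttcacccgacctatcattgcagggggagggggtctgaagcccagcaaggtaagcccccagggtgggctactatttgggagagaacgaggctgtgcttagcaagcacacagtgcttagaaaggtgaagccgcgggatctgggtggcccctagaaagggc
Hoxa9, chr6:52227321-52227620, minus strand: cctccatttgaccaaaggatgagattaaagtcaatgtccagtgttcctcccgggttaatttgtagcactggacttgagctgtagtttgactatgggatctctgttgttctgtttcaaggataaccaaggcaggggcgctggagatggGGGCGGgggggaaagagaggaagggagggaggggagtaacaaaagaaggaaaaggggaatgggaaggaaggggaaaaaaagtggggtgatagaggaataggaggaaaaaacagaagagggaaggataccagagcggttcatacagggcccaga
Hoxa10 start nearer Hoxa9, chr6:52234890-52235189, minus strand: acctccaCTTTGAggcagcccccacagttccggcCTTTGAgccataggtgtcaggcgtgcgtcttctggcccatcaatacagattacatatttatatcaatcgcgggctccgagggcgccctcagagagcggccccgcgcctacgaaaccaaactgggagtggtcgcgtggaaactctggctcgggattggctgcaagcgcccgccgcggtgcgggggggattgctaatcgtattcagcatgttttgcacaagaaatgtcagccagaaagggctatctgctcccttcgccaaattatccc
Hoxa10 start farther from Hoxa9, chr6:52240805-52241104, minus strand: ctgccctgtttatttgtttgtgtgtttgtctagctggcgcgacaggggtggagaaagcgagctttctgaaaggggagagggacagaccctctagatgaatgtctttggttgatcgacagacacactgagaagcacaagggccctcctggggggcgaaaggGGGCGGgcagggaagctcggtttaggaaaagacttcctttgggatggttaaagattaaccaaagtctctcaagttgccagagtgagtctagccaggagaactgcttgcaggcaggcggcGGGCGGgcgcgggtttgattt

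The motifs were searched on both strands, and no match overlapped another. TTTATG, bound by Cdx TFs, was found in the *Hoxa7* window at positions -236 and -173 from the start, in none of the other 3 windows shown, and in 11.9% of all 32851 windows of the table. CTTTGA, bound by the TCF/LEF factors of the Wnt pathway, was found at positions -243 and -216 in the *Hoxa10* window nearer *Hoxa9* and in 16% of all windows. GGGCGG, bound by SP1, was found in the *Hoxa9* window at position -103 and in the other *Hoxa10* window at positions -90 and 30, and in 35.7% of all windows. TGATTGAT, bound by Hox and Pbx proteins together, and AGGTCA, the core site of nuclear receptors, were in none of these 4 windows, and in 0.746% and 16.3% of all windows. These letters describe the windows only, and binding was not measured.

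The *Hoxa9* gene (chr6:52223100-52231089, minus strand, GRCm38, GENCODE release M21) and the *Hoxa10* gene (chr6:52231197-52240854, minus strand) are separated by 107 bases. *Hoxa7* (chr6:52214491-52221854) lies 1245 bases on the other side. The *Hoxa9* window shown above (chr6:52227321-52227620), from RefSeq, lies inside this *Hoxa9* annotation and not at its end. The gap of 107 bases therefore depends on the annotation and is not measured from the start shown. Reads in introns were counted, and a transcript that runs from *Hoxa10* into *Hoxa9* was not told apart here from separate transcripts of both genes. The *Hoxa9* annotation also contains Mir196b (chr6:52230081-52230165), and another gene of this microRNA family, Mir196a-1, lies 295 bases past the end of the noncoding gene *Gm53* described below. The mature microRNAs, which are known to act on Hox transcripts such as that of *Hoxb8*, are shown for these places in the clusters, with the seed (bases 2 to 8) in capitals. They share the seed and differ by A12C, counted from the 5′ end of miR-196a-5p, and their levels were not measured.
miR-196a-5p: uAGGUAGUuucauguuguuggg
miR-196b-5p: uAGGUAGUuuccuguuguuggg

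The genes that chose the cells were captured at low counts. Of the *Hoxa9* cells, 923 (54.2%) had exactly 1 *Hoxa9* read and so lie just inside the rule, 389 had 2 reads and 390 had 3 or more, with a highest count of 13. Cells just outside the rule had 0 *Hoxa9* reads. A cell without a read of a gene may still hold its transcript, so groups without a read are not groups without expression. Of the *Hoxa5*-only cells, 3605 had 1 *Hoxa5* read, 2371 had 2 and 3506 had 3 or more. *Hoxa5* itself was captured in 1174 of the *Hoxa9* cells (69.0%), against 64.1% of all cells without *Hoxa9* at like depth, a ratio of 1.08 (1.04 to 1.11). In the lines derived with XAV939, *Hoxa9* reads were found in 2 of 14452 XN1 cells (0.0138%) and 4 of 8741 XN4 cells (0.0458%), with median depths of 5981.5 and 12615 reads per cell against 9173 in CN4. *Hoxa9* is not listed for KN1 in the normalized table used here.

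Depth had to be matched because a deeper cell captures more of every gene. *Hoxa9* cells had a median of 10730 reads and 3439 genes, *Hoxa5*-only cells 10159 reads and 3308 genes, and cells with neither read 7598 reads and 2713 genes. For each gene, the share of *Hoxa5*-only cells was therefore weighted over 20 strata of total reads to the strata of the *Hoxa9* cells, and the capture ratio is the share in *Hoxa9* cells divided by that weighted share. The limits of a ratio come from the exact interval of the *Hoxa9* cells alone. After weighting, the mean number of genes detected was 3490 in *Hoxa9* cells and 3477 in *Hoxa5*-only cells, and the mitochondrial share of reads was 15.4% and 15.2%. The mean number of other Hox genes captured per cell was 7.93 in *Hoxa9* cells and 6.89 in *Hoxa5*-only cells at like depth. Some CN4 barcodes also occurred in another table, 94 in KN1, 320 in XN1 and 169 in XN4, including 14, 19 and 18 *Hoxa9* cells. Without them, the ratio of *Hoxa10* was 7.39 in place of 7.23, that of *Hoxc9* 2.04 in place of 2.02, and that of *Hoxc8* 1.57 in place of 1.56.

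A gene was counted as higher when it was captured at least 25% more often in *Hoxa9* cells and as lower when it was captured at least 20% less often, the same fold in both directions. It was compared when at least 5% of the cells of both groups together had captured it. This left 10145 genes, of which 60 (0.591%) were higher in *Hoxa9* cells and 25 (0.246%) were lower, with a median ratio of 1.00. Of the 37 other Hox genes listed, 34 were found and 20 could be compared. Of these 20, 5 were higher (*Hoxa10*, *Hoxc5*, *Hoxc6*, *Hoxc8* and *Hoxc9*) and 0 were lower. *Hoxa10* met the minimum through the *Hoxa9* cells, as its share in *Hoxa5*-only cells was below 5%, and without it the count was 4 of 19, with a median ratio of 1.05. The 0 lower depended on the setting, since *Hoxa4* was 0.8 or less in 3 of 17 alternatives (lowest 0.70) *Hoxc4* in 2 of 17 (lowest 0.63), and *Hoxa3* and *Hoxd4* in 1 each. By paralog group, and without *Hoxa10*, 0 of 8 genes of groups 1 to 4, 3 of 9 of groups 5 to 8 and 1 of 2 of groups 9 to 13 were higher. By cluster, and again without *Hoxa10*, the count was 0 of 4 for *Hoxa*, 0 of 8 for *Hoxb*, 4 of 5 for *Hoxc* and 0 of 2 for *Hoxd* genes. The 0 of 8 depended on the setting as well, since *Hoxb2* reached 1.26 and *Hoxb5* 1.27 in 1 of 17 alternatives each. *Hoxb8* could not have been counted as higher, because its weighted share in *Hoxa5*-only cells was already 81.5%. *Hoxb9*, at 73.9%, had little room, so the counts of the clusters are not on an equal footing.

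**Figure D1:**
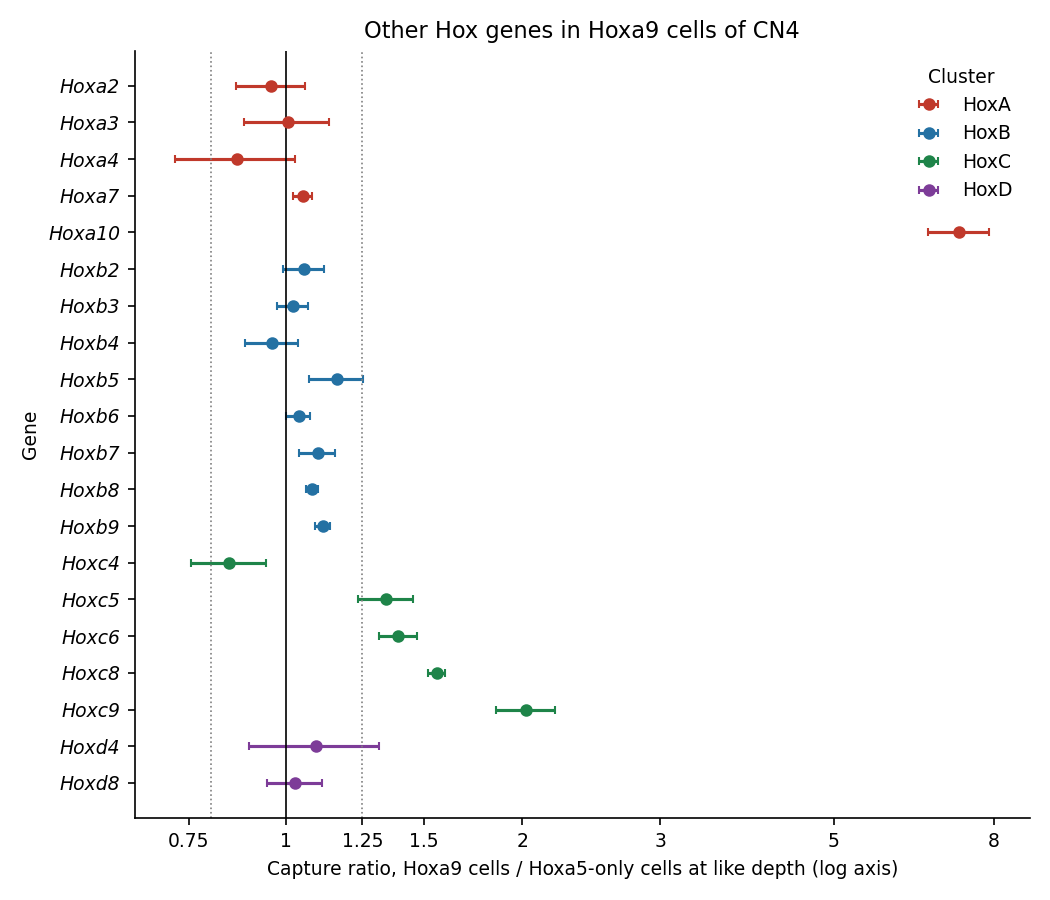
Capture ratio of the 20 other Hox genes that could be compared, *Hoxa9* cells over *Hoxa5*-only cells at like depth, on a log axis. Points are ratios, bars are the limits from the exact 95% interval of the share in *Hoxa9* cells, colors mark the clusters, and dotted lines mark the fold in either direction. *Hoxa10* lies at 7.23, and the *Hoxc* genes step up from *Hoxc4* at 0.85 to *Hoxc9* at 2.02.

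Among the *Hoxa* genes that could be compared, *Hoxa10* stood apart, and the other ratios ran from 0.86 to 1.05. The ratio of *Hoxa10* was 7.23 (6.60 to 7.90), and its level was 0.314 reads per 10000 reads of a cell in *Hoxa9* cells against 0.0419 in *Hoxa5*-only cells. *Hoxa7*, the next gene on the anterior side, had a ratio of 1.05 (1.02 to 1.08) and levels of 2.05 and 2.02 reads per 10000. *Hoxa2* had 0.96 (0.86 to 1.06), *Hoxa3* 1.00 (0.88 to 1.13) and *Hoxa4* 0.86 (0.72 to 1.03). The limits of *Hoxa2*, *Hoxa3* and *Hoxa4* included 1. The annotation of *Hoxa3* (chr6:52169062-52213336) spans *Hoxa5* on the same strand, so reads of *Hoxa3* and of the gene that chose the comparison cells may not be separated. *Hoxa6* (31 cells, 1.82% against 1.51%) was captured too rarely to be compared, and *Hoxa11* was captured in 0 of the 1702 *Hoxa9* cells.

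Over all *Hoxa9* cells, the ratios of the *Hoxc* genes stepped up along the cluster. From the anterior end, *Hoxc4* had a ratio of 0.85 (0.76 to 0.94), *Hoxc5* 1.34 (1.23 to 1.45), *Hoxc6* 1.39 (1.31 to 1.47), *Hoxc8* 1.56 (1.52 to 1.59) and *Hoxc9* 2.02 (1.85 to 2.20). The limits of *Hoxc5* and *Hoxc6* overlapped, while those of *Hoxc6*, *Hoxc8* and *Hoxc9* did not. *Hoxc8*, with a weighted share of 50.3% in *Hoxa5*-only cells, had less room for a high ratio than *Hoxc9*, at 11.8%. Ratios of levels, in the same order, were 0.80, 1.33, 1.45, 1.64 and 2.21. In percentage points the order differed, with 28.0 for *Hoxc8* and 12.1 for *Hoxc9*. The order did not hold in every subset. *Hoxc5* lay above *Hoxc6* in the deepest of 4 parts by depth, after thinning to 3600 reads and in *Hoxa9* cells with a *Hoxa10* read, *Hoxc6* and *Hoxc8* both had 1.59 in the part next to the deepest, and *Hoxc5* and *Hoxc6* both had 1.34 in *Hoxa5*-only cells with a *Hoxa10* read against those without. *Hoxc4* was captured in 16.1% of *Hoxa9* cells against 19% and lay on the other side of 1 from the rest, within the fold. All comparison cells had a *Hoxa5* read, unlike some *Hoxa9* cells. In *Hoxa9* cells with a *Hoxa5* read, the limits of *Hoxc4* included 1 (0.89, 0.78 to 1.01). From the shallowest to the deepest of 4 parts by depth, its ratio was 0.54 (0.35 to 0.79), 0.92 (0.71 to 1.17), 0.99 (0.79 to 1.21) and 0.83 (0.71 to 0.97). *Hoxc8*, which is used along the thoracic cord, showed the widest gap in cells, 28.0 percentage points, and its level was 3.58 against 2.19 reads per 10000. *Hoxc6* was captured in 41.5% against 29.8%, and *Hoxc5* in 26.3% against 19.6%.

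*Hoxc10*, a gene of the lumbar cord, was captured in 24 *Hoxa9* cells (1.41%, 0.906% to 2.09%) against 0.507% at like depth, a ratio of 2.78 (1.79 to 4.13). It was under the minimum of 5% of cells. In the 263 *Hoxa9* cells of the normalized table the direction turned, with a ratio of 0.54, which at shares this small rests on very few cells. *Hoxc13* was captured in 0 *Hoxa9* cells and in 5 *Hoxa5*-only cells. The *Hoxc5* annotation (chr15:102967443-103017429, plus strand) spans *Hoxc6*, *Hoxc8*, *Hoxc9* and part of *Hoxc10* on the same strand, so the value of *Hoxc5* may hold reads of its neighbors. *Hoxc4* (chr15:103018934-103036852) starts past the end of that span.

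The *Hoxb* genes differed little. *Hoxb5* had a ratio of 1.16 (1.069 to 1.253), *Hoxb6* 1.04 (1.00 to 1.07), *Hoxb7* 1.10 (1.04 to 1.15), *Hoxb8* 1.08 (1.06 to 1.10) and *Hoxb9* 1.11 (1.09 to 1.14). *Hoxb9*, the *Hoxb* gene of the same paralog group as *Hoxa9*, was captured in 82.2% of *Hoxa9* cells against 73.9%, and *Hoxb8* in 88.0% against 81.5%. These genes were captured in most cells, which leaves little room for a larger ratio of shares. Their levels differed by 1.20 times for *Hoxb9* (3.51 against 2.91 reads per 10000) and 1.09 times for *Hoxb8* (3.12 against 2.87). *Hoxb2*, *Hoxb3* and *Hoxb4*, genes of the hindbrain, had ratios of 1.05, 1.02 and 0.96, all with limits that included 1. *Hoxb1* was captured in 1 *Hoxa9* cell and *Hoxb13* in 0.

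Of the *Hoxd* genes, *Hoxd4* had a ratio of 1.09 (0.90 to 1.31) and *Hoxd8* 1.03 (0.94 to 1.11). *Hoxd9*, of the same paralog group as *Hoxa9*, was captured in 66 *Hoxa9* cells (3.88%) against 4.66%, below the minimum, with a ratio of 0.83 (0.65 to 1.05). That ratio was 0.8 or less in 7 of 17 alternatives, with a lowest value of 0.51 in the cells of the normalized table. *Hoxd3* was captured in 19 *Hoxa9* cells, *Hoxd1* in 2, *Hoxd10* and *Hoxd13* in 1 each, and *Hoxd11* and *Hoxd12* in 0. A count of 0 in 1702 cells has an exact upper limit of 0.217%. *Hoxa13*, *Hoxc11* and *Hoxc12* were looked for but are not among the genes counted for CN4.

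Of the noncoding RNAs of the clusters, 6 could be compared and 2 were higher in *Hoxa9* cells, beside 0.591% of all genes compared. *Gm53* (chr11:96251105-96264868, plus strand), a noncoding gene on the posterior side of *Hoxb9*, was captured in 10.3% of *Hoxa9* cells against 5.81%, a ratio of 1.78 (1.54 to 2.05). *Hoxb5os* (chr11:96291024-96306910, minus strand), which runs antisense to *Hoxb5* and *Hoxb6*, was captured in 20.2% against 13.7%, a ratio of 1.47 (1.33 to 1.62). The ratios of the sense genes were 1.16 for *Hoxb5* and 1.04 for *Hoxb6*, and whether strand was used in counting is not given in the sources used here. *Hotairm1*, at the anterior end of HoxA, had 0.98 (0.91 to 1.05), *Hoxaas3* 0.94 (0.82 to 1.07), *Hoxb3os* 1.06 (0.87 to 1.27) and *Hoxd3os1* 1.04 (0.87 to 1.23). The count of 2 depended on the setting, since *Hoxb3os* and *Hoxd3os1* passed the higher fold in 2 of 17 alternatives each (highest 1.52). *Hoxaas3* was 0.8 or less in 2 of 17 (lowest 0.58), and *Hotairm1* and *Hoxd3os1* in 1 each. *Gm15050* (0.85, 0.77 to 0.94) and *Gm28308* (1.29, 1.02 to 1.60, captured in 77 *Hoxa9* cells and under the minimum), an antisense and an annotated protein-coding gene of the HoxA region, were added after their values were seen.

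The differences in *Hoxa10*, *Hoxc9* and *Hoxc8* had the same direction at every depth, although the intervals of single strata could overlap. In the shallowest stratum, *Hoxa10* was captured in 3 of 68 *Hoxa9* cells (0.919% to 12.4%) against 10 of 492 *Hoxa5*-only cells (0.979% to 3.71%). Over the 20 strata, which ran from a median of 4105 to 22956 reads per cell, each of the 3 genes was captured in a larger share of *Hoxa9* cells than of *Hoxa5*-only cells in 20 of 20 strata, and *Hoxa7* in 18 of 20. When the cells were divided into 4 parts by depth, *Hoxa10* was captured in the shallowest part, with a median of 6178 reads, in 11.9% of 361 *Hoxa9* cells against 2.01%, a ratio of 5.93 (4.36 to 7.83). In the deepest part, with a median of 16307.5 reads, it was captured in 30.2% of 523 *Hoxa9* cells against 4.09%, a ratio of 7.39 (6.44 to 8.40). The ratio of *Hoxc9* was 2.86 (2.24 to 3.57) in the shallowest and 1.70 (1.48 to 1.93) in the deepest part, and that of *Hoxc8* was 1.73 (1.59 to 1.87) and 1.42 (1.37 to 1.46). For *Hoxc8* the share in *Hoxa9* cells of the deepest part was 88.7%.

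**Figure D2:**
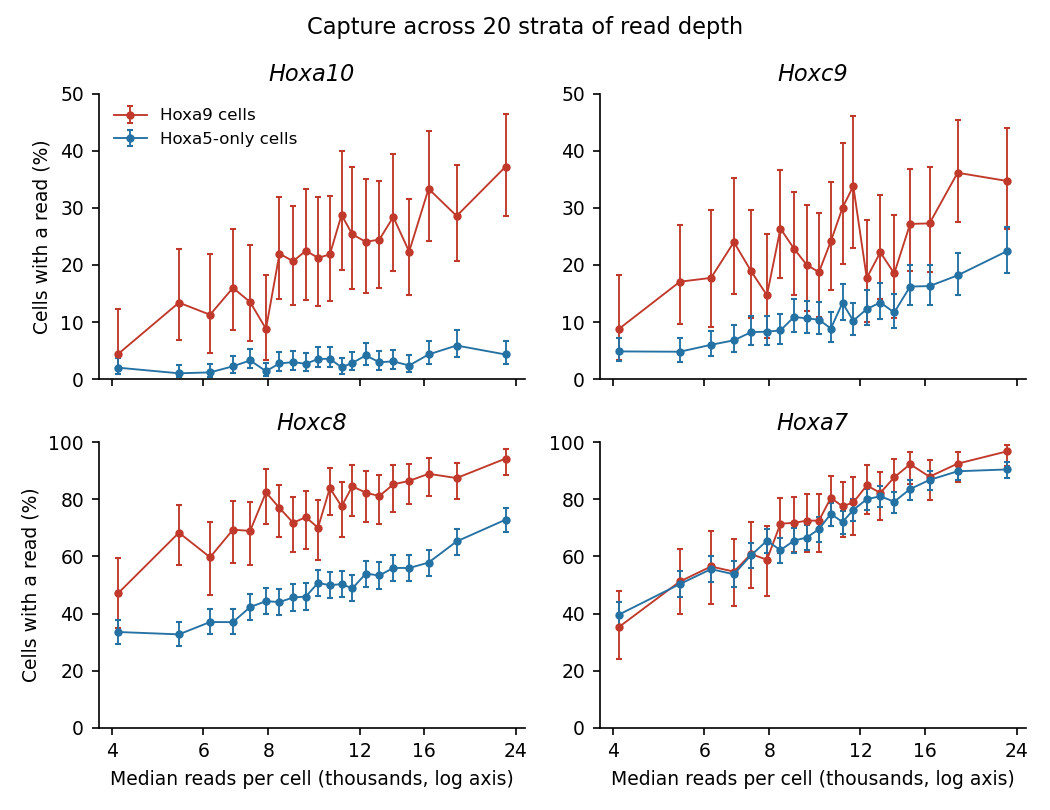
Share of cells with a read of *Hoxa10*, *Hoxc9*, *Hoxc8* or *Hoxa7* against the median number of reads per cell (in units of 1000, log axis) in 20 strata of depth, for *Hoxa9* cells (red) and *Hoxa5*-only cells (blue). Bars are exact 95% intervals. *Hoxa9* cells lie higher in 20 of 20 strata for *Hoxa10*, *Hoxc9* and *Hoxc8*, while the lines of *Hoxa7* run together and *Hoxa9* cells are higher in 18 of 20.

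The ratio of *Hoxa10* increased with the number of *Hoxa9* reads in the cell, while those of *Hoxc8*, *Hoxc6* and *Hoxc9* did not follow that number. The classes divide the gene that chose the cells and are a description only. Reads and not molecules were counted, so several *Hoxa9* reads may come from the same molecule. In cells with 1, 2 and 3 or more *Hoxa9* reads, *Hoxa10* was captured in 17.2%, 23.1% and 34.1% of cells, with ratios of 5.68 (4.90 to 6.54), 7.39 (6.08 to 8.83) and 10.3 (8.90 to 11.8). *Hoxc8* had ratios of 1.55, 1.58 and 1.55, *Hoxc6* 1.39, 1.38 and 1.38, and *Hoxc9* 1.88, 2.35 and 2.01 in the same classes. *Hoxc4* had 0.82 (0.70 to 0.96), 0.71 (0.54 to 0.91) and 1.01 (0.82 to 1.22). *Vxn*, described below, had ratios of 0.50, 0.41 and 0.45.

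**Figure D3:**
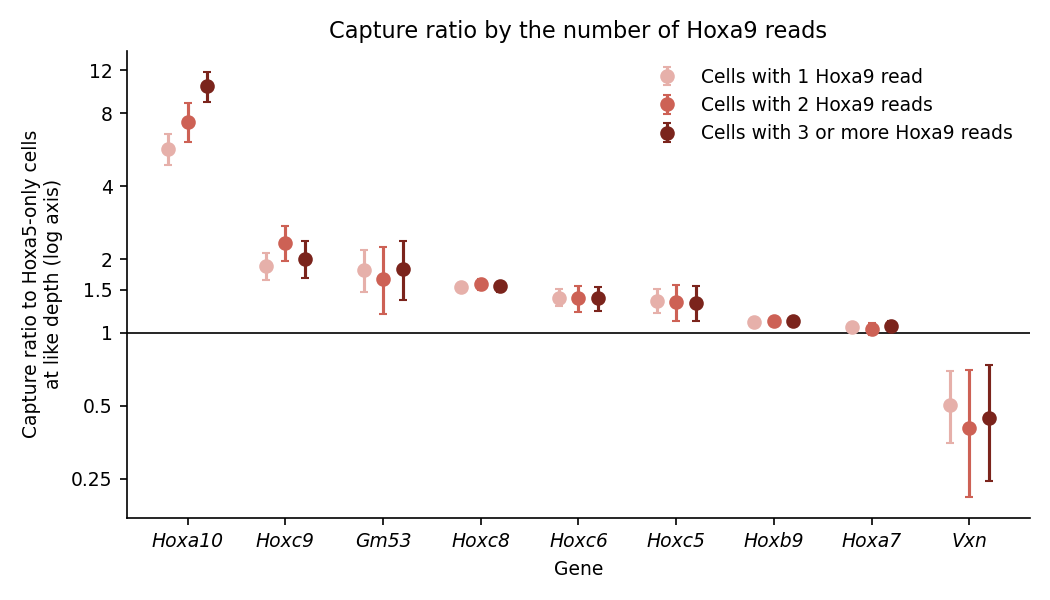
Capture ratio to *Hoxa5*-only cells at like depth (log axis) of 9 genes in *Hoxa9* cells with 1, 2 and 3 or more *Hoxa9* reads. Bars are limits from the exact 95% interval of the share in each class. The ratio of *Hoxa10* goes from 5.68 to 10.3, while the points of *Hoxc8* stay between 1.55 and 1.58.

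*Hoxa10*, *Hoxc9* and *Hoxc8* were captured more often both with and without *Hoxa5*. In the 1174 *Hoxa9* cells with a *Hoxa5* read, *Hoxa10* had a ratio of 7.65 (6.90 to 8.44), *Hoxc9* 1.97 (1.78 to 2.18) and *Hoxc8* 1.55 (1.51 to 1.60). In the 528 *Hoxa9* cells without a *Hoxa5* read, the ratios were 6.16 (5.04 to 7.42), 2.16 (1.82 to 2.53) and 1.56 (1.48 to 1.65). With and without *Hoxa5*, *Hoxa7* had 1.10 (1.07 to 1.13) and 0.93 (0.87 to 0.99), *Hoxa4* 0.95 (0.78 to 1.15) and 0.62 (0.39 to 0.93), *Hoxb5* 1.23 and 0.99 (0.82 to 1.17), and *Hoxc4* 0.89 (0.78 to 1.01) and 0.73 (0.57 to 0.91). Cells with neither *Hoxa5* nor *Hoxa9*, set against *Hoxa5*-only cells at like depth, had ratios of 0.82 (0.69 to 0.97) for *Hoxa10*, 0.84 (0.82 to 0.86) for *Hoxa7*, 0.93 (0.90 to 0.96) for *Hoxc8* and 1.15 (1.07 to 1.24) for *Hoxc9*.

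*Hoxc9*, *Hoxc8* and *Hoxc6* were also captured more often in *Hoxa9* cells without a *Hoxa10* read, although such cells may hold uncaptured *Hoxa10* transcripts. In the 1320 *Hoxa9* cells without a *Hoxa10* read, against *Hoxa5*-only cells without one, the ratio of *Hoxc9* was 2.04 (1.84 to 2.26), that of *Hoxc8* 1.59 (1.54 to 1.63) and that of *Hoxc6* 1.39 (1.30 to 1.48), while *Hoxc4* had 0.85 (0.75 to 0.96). The same genes were then read in *Hoxa5*-only cells, divided by a read of *Hoxa10*. These cells were chosen by the gene with the highest ratio above, and they may hold *Hoxa9* transcripts that were not captured. They are therefore not a separate check of the *Hoxa9* comparison. The 278 *Hoxa5*-only cells with a *Hoxa10* read captured *Hoxc9* in 32.0% (26.6% to 37.8%), against 11.5% of the 9204 *Hoxa5*-only cells without *Hoxa10* at like depth, a ratio of 2.77 (2.30 to 3.28). In this comparison *Hoxc8* had 1.56 (1.45 to 1.65), *Hoxc6* 1.34 (1.15 to 1.54) and *Hoxb9* 1.17 (1.11 to 1.22). The limits of *Hoxc4* (0.93, 0.71 to 1.19), *Hoxb5* (0.85, 0.66 to 1.07) and *Hoxb7* (0.95, 0.81 to 1.09) included 1. *Gm53*, in contrast, was captured in 6.12% of the 278 cells against 6.05%, a ratio of 1.01 (0.60 to 1.59).

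**Figure D4:**
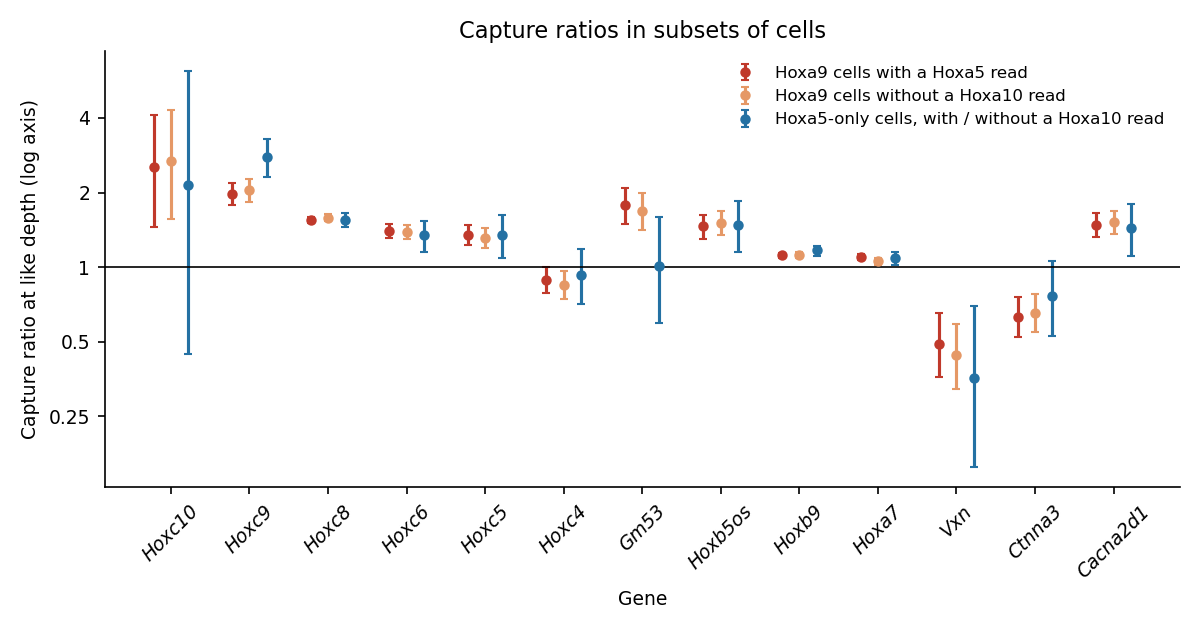
Capture ratio at like depth (log axis) of 13 genes in 3 comparisons: *Hoxa9* cells with a *Hoxa5* read against *Hoxa5*-only cells (red), *Hoxa9* cells without a *Hoxa10* read against *Hoxa5*-only cells without one (orange), and *Hoxa5*-only cells with against without a *Hoxa10* read (blue). Bars are limits from the exact 95% interval of the first-named cells. *Hoxc9*, *Hoxc8*, *Hoxc6* and *Hoxc5* lie above 1 and *Vxn* below 1 in all 3, whereas *Gm53* is at 1.01 in the last.

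In the lines derived with XAV939, these posterior genes were captured in few cells. *Hoxa10* was captured in 2 XN1 cells and 2 XN4 cells, *Hoxc9* in 3 and 1, and *Hoxc8* in 4 and 7. *Hoxb9* was captured in 11 XN1 cells and 0 of 8741 XN4 cells, with an exact upper limit of 0.0422%, and in 212 of 3975 KN1 cells (5.33%) of the normalized table. *Hoxc8* was captured in 13 of those KN1 cells (0.327%, 0.174% to 0.559%), against 0.0277% in XN1 and 0.0801% in XN4, and *Hoxa10* and *Hoxc9* are not listed there. The share of *Hoxa10* in *Hoxa5*-only cells of CN4, 2.93% without weighting, was thus above its share in XN1 and XN4 (0.0138% and 0.0229%), as was its share in CN4 cells with neither read (1.98%).

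None of the regulators of the clusters that could be compared reached this fold, which 0.591% of all genes reached upward and 0.246% downward, so a count of 0 is near that background for lists of this size. Of the Hox cofactors, the Meis, Pbx and Pknox TFs that bind DNA together with Hox proteins, 0 of 8 reached the fold, with a median ratio of 0.99. Of the Cdx and axial progenitor genes, 3 could be compared and 0 reached it, and *Wnt5a*, a Wnt ligand of the tail bud, had 1.09 (1.03 to 1.15). *Cdx1* was captured in 0 of the 1702 *Hoxa9* cells, and *Cdx2* and *Cdx4* are not among the genes counted for CN4. Of the Wnt targets and TCF factors, 0 of 9 reached the fold (median 1.01), with *Ccnd1*, a cyclin of the G1 phase, at 0.98 (0.96 to 1.00). Of the retinoic acid genes, 0 of 6 did (median 0.95). Of the Polycomb and Trithorax genes, which hold Hox clusters silent or active, 0 of 20 did (median 0.98), with *Ezh2*, the Polycomb methyltransferase, at 0.99 (0.96 to 1.01). *Ccnd1* could not have reached the higher fold, as its weighted share in *Hoxa5*-only cells was already 86.6%, and *Ezh2*, at 79.4%, had little room.

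Most regional genes outside the Hox clusters were captured too rarely to be compared, 10 of 14 brain region genes and 12 of 21 dorsoventral factors. Over all genes compared, 0.591% were higher and 0.246% lower, so counts of 0 in lists of this size say little about the lists. *En1*, a TF of the midbrain-hindbrain boundary and of V1 interneurons of the spinal cord, was captured in 42.9% of *Hoxa9* cells (730 cells, 40.5% to 45.3%) against 32.6%, a ratio of 1.32 (1.24 to 1.39), with levels of 0.973 and 0.665 reads per 10000. It was 1 of 4 brain region genes compared, and the others did not reach the fold. Of the dorsoventral factors, 0 of 9 compared did (median 0.96, lowest 0.81), with *Olig2*, a TF of the ventral cord, captured in 88.5% against 87.9%. Of the neural stem cell genes, 0 of 12 did (median 1.00), with *Fabp7*, a fatty acid carrier of radial glia, captured in 99.5% of both groups. *Olig2* and *Fabp7* could not have been counted as higher, because their weighted shares in *Hoxa5*-only cells were already 87.9% and 99.5%.

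The cell cycle genes and the markers of other cell types that could be compared did not reach the fold, as with all but 0.591% (higher) and 0.246% (lower) of all genes. None of the 14 G2-M genes (median 1.00) and none of the 11 S phase genes (median 0.98) reached the fold, with *Hmgb2* at 0.99 (0.97 to 1.02) and *Pcna* at 0.97 (0.94 to 1.00). The summed level of the G2-M genes was 36.5 reads per 10000 in *Hoxa9* cells and 36.9 in *Hoxa5*-only cells. Of the listed markers, 3 of 10 for neurons, 4 of 6 for astrocytes, 2 of 6 for oligodendrocyte precursors, 2 of 6 for mesoderm and 1 of 6 for neural crest were captured often enough to be compared. The neuron markers had ratios from 0.99 to 1.20 (median 1.01, with *Map2* at 1.01), the astrocyte markers from 0.91 to 1.05 (median 0.98, with *Gja1* at 1.05) and the oligodendrocyte precursor markers from 0.82 to 1.00 (median 0.91, with *Olig1* at 1.00). *Ets1* (neural crest) had 0.92 and *Prrx1* (mesoderm) 0.87 (0.82 to 0.93). *Map2* and *Olig1* could not have reached the higher fold, as their weighted shares in *Hoxa5*-only cells were already 89.5% and 90.3%. *Hmgb2*, at 78.3%, had little room. The summed levels in *Hoxa9* and *Hoxa5*-only cells were 4.86 and 4.79 reads per 10000 for the neuron markers, 4.03 and 4.26 for the astrocyte markers, and 6.12 and 6.43 for the oligodendrocyte precursor markers. None of the 5 epiblast markers was frequent enough to be compared, with summed levels of 0.00698 and 0.00706 reads per 10000.

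Outside the lists, the 10 highest ratios lay between 1.35 and 1.57. *Psd*, an exchange factor of Arf6, was captured in 11% of *Hoxa9* cells against 7.05%, a ratio of 1.57 (1.36 to 1.79). *Gabrg1*, a subunit of the GABA-A receptor, had 1.53 (1.34 to 1.75), and *Cacna2d1*, a subunit of voltage-gated calcium channels, had 1.53 (1.39 to 1.67), captured in 21.4% against 14.0%. *Fgf11* followed with 1.40, *Fndc5*, the irisin precursor, with 1.39, *Trhr*, the receptor of thyrotropin-releasing hormone, with 1.38, *Ppp2r2c*, a phosphatase subunit, with 1.37, *Slc16a9*, a monocarboxylate transporter, with 1.37, *Nr4a3*, an orphan nuclear receptor, with 1.36, and *St8sia2*, which makes polysialic acid, with 1.35. In *Hoxa5*-only cells with *Hoxa10*, *Cacna2d1* had 1.43 (1.11 to 1.80) and *Gabrg1* 1.34 (0.92 to 1.89).

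The 10 lowest ratios lay between 0.47 and 0.75. *Vxn*, which encodes vexin, a factor of neurogenesis, was captured in 60 *Hoxa9* cells (3.53%, 2.70% to 4.51%) against 7.57%, a ratio of 0.47 (0.36 to 0.60). In the 263 *Hoxa9* cells of the normalized table its ratio was 0.16, which at so small a share rests on few cells. Over 17 alternatives it lay between 0.16 and 0.49. In *Hoxa5*-only cells with *Hoxa10* its ratio was 0.36 (0.16 to 0.70), and that of *Ctnna3* was 0.76 (0.53 to 1.06). *Vxn* was captured in 12% of XN1 cells, 0.0801% of XN4 cells and 1.69% of KN1 cells of the normalized table. *E130114P18Rik* had 0.57 (0.46 to 0.70), and *Ctnna3*, a catenin of cell junctions, 0.63 (0.54 to 0.74), captured in 9.05% against 14.3%. *Pcdh11x*, a protocadherin, had 0.69, *Mme*, the peptidase neprilysin, 0.71, *Gcnt4* 0.72, *Castor2*, a relative of the arginine sensor Castor1, 0.72, *Dmac2* 0.74, *Parvb*, parvin beta of focal adhesions, 0.74, and *Fgfr3*, an FGF receptor of neural progenitors, 0.75 (0.63 to 0.88). *Slc16a9* met the minimum of 5% only through the *Hoxa9* cells (6.93%, against 4.75% of *Hoxa5*-only cells without weighting), and *Vxn* (3.53% against 7.38%) and *Dmac2* (4.35% of *Hoxa9* cells) only through the *Hoxa5*-only cells, the group in which each was higher. These 20 genes were chosen as the ends of 10145 ratios, so their limits do not allow for that choice.

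**Figure D5:**
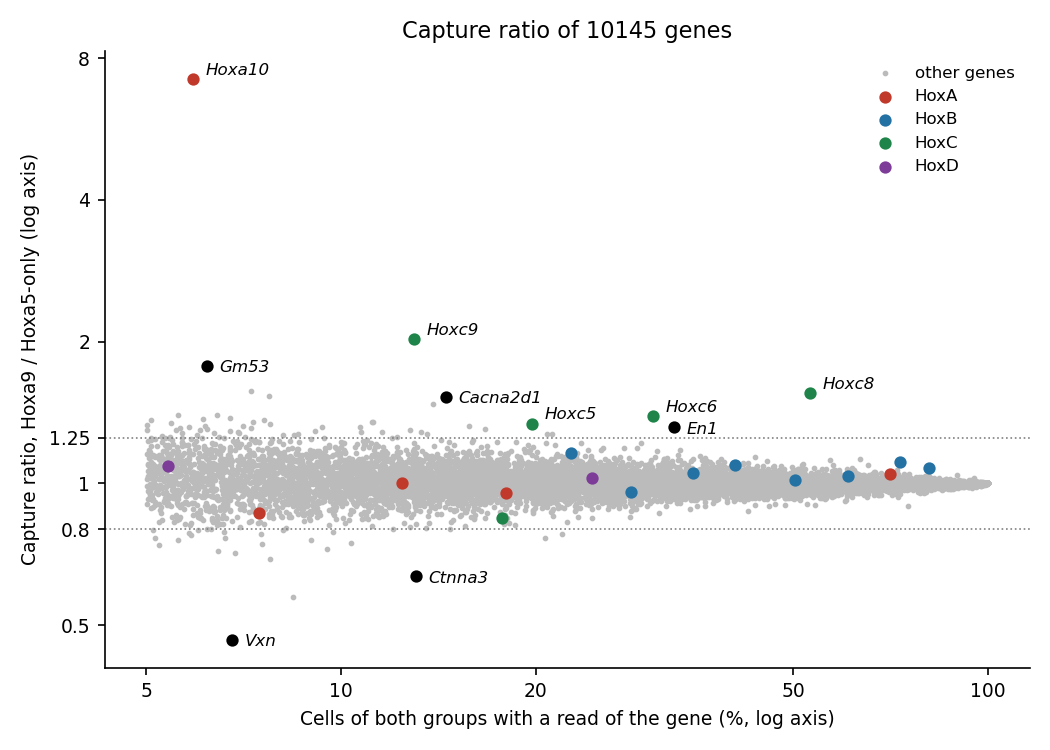
Capture ratio (log axis) of 10145 genes against the share of cells of both groups in which the gene was captured (percent, log axis). Gray points are genes outside the named sets, colored points are Hox genes by cluster, black points are named genes, and dotted lines mark the fold in either direction. *Hoxa10* at 7.23 and *Hoxc9* at 2.02 lie above all other points, *Vxn* at 0.47 lies below all others, and the cloud narrows as capture becomes more frequent.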

How the data were processed

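Single-cell transcriptomes of CN4 were analysed, 1 library of 180825519 reads in 18157 cells. The authors deposited counts of reads per gene and cell, not of molecular identifiers, by the BD Rhapsody WTA Analysis Pipeline (version 1.12.1) on GRCm38 with GENCODE release M19, with intronic reads counted. A second deposited table per line holds natural log values of a random part of the cells, without genes of ribosomal proteins and mitochondria, and served here for KN1 and to choose CN4 cells for an alternative. Capture was read from the counts as deposited, and levels are counts scaled to 10000 reads of a cell. *Hoxa9* and *Hoxa5* reads were left out of the total that set the strata. Intervals are exact (Clopper-Pearson) 95% binomial intervals, and with 9.37% of 18157 cells the interval spans 8.95% to 9.81%. No doublet caller was used. The 5% of cells with the most reads were left out as an alternative. Named genes were every Hox gene and Hox cluster noncoding RNA listed, from each other list the genes past the fold and the most captured gene, and the 10 highest and 10 lowest ratios outside the lists. Values of certain genes that this rule names are not reported here. The members and lists were chosen with earlier results of these data known. The procedure was run on captures simulated for each gene separately within the same strata, without the most captured genes. Such a run can show only that the weighting returns the ratios put in. Alternatives included 5 or 50 strata, strata of genes detected, no strata, thinning to 3600 reads, at least 2 reads, and other sets of cells. Python 3.11.15, numpy 2.4.6, scipy 1.17.1 and pandas 2.3.3 were used.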

Additional observations from a re-analysis of the deposited data

How the results depend on the processing

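The median capture ratio of the other Hox genes lay between 1.04 and 1.14 over 17 alternatives, the highest, 1.14, being in the 230 *Hoxa9* cells without *Mki67*, *Top2a* or *Hmgb2*. *Hoxa10* lay between 6.67 and 8.89 over 16 alternatives, *Hoxc9* between 1.93 and 2.53, *Hoxc8* between 1.51 and 1.69, and *Hoxc6* between 1.38 and 1.5 over 17 each. The numbers of genes past the fold, 60 higher and 25 lower, moved far more. They were 194 and 11 without depth matching, 147 and 100 with at least 2 *Hoxa9* reads, 128 and 80 with levels in place of capture, and 436 and 244 with genes captured in at least 1% of cells. They were 561 and 664 in the 263 *Hoxa9* cells of the normalized table and 687 and 822 in the cells without *Mki67*, *Top2a* or *Hmgb2*. The number lower was 58 after thinning to 3600 reads, which left out 17 *Hoxa9* and 119 *Hoxa5*-only cells, 46 in *Hoxa9* cells with *Hoxa5*, 46 without the 5% of cells with the most reads, and 54 in cells without *Hoxa10*. The alternatives without *Hoxa10* and without shared barcodes were chosen after seeing the data. The direction turned for *Gm28308* with at least 2 reads for capture (0.86), for *Hoxc10* in the cells of the normalized table (0.54), and for *Mme* (1.08) and *Castor2* (1.03) in cells without *Mki67*, *Top2a* or *Hmgb2*. The cause was not tested. Genes named as past the fold that lost it were *Gabrg1* in 2 of 17 alternatives (lowest 1.09), *Slc16a9* in 1 (1.19), *Ctnna3* in 1 (0.81), *Mme* in 2 (highest 1.08), *Castor2* in 1 (1.03), *Gcnt4* in 2 (0.84), *Dmac2* in 2 (0.89) and *Parvb* in 2 (0.80). *Hoxa4* and *Hoxc4* gained the lower fold in 3 and 2. The cells of the normalized table gave *Vxn* 0.16, *Fgfr3* 0.45 and *Dmac2* 0.41, and those without *Mki67*, *Top2a* or *Hmgb2* gave *E130114P18Rik* 0.36. At the small shares of these genes, such values rest on few cells. The value of *Hoxc10* rests on 24 *Hoxa9* cells, and its turned value on very few of the 263. No paired analysis was possible because each line was 1 library.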
